A study of Mus musculus with 4 samples.

Results

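Cycling macrophages of the stroke-injured mouse brain were 515 of the 60942 cells kept from 4 single-cell libraries, and most of them came from 1 library. Ms4a3 cKO 1 held 8 of them and Ms4a3 cKO 2 held 9, while Flox control 1 held 436 and Flox control 2 held 62. A cell was chosen from its own transcript counts: at least 80 Lyz2 transcripts per 10000, at least 1 transcript of 3 or more of Mki67, Top2a, Cenpe, Prc1, Ccna2 and Cenpf, fewer than 15 Arg1 plus Chil3 transcripts per 10000, S100a8 plus S100a9 under 1% of transcripts, and no transcript of Sall1, Siglech, Gpr34, Lyve1, Cbr2, Flt3 or Cd209a. Cells that met every criterion other than the cycle genes are called gated macrophages and numbered 6956. The 4877 of these with none of the 6 cycle genes are called non-cycling macrophages, and the 1564 with 1 or 2 belong to neither state.

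The study took the hemisphere on the injured side 3 days after tMCAO, a stroke model in which the middle cerebral artery is blocked and then reopened, and captured its cells without enrichment on the BD Rhapsody microwell platform. The Ms4a3 cKO mice are described as Htr2b ERCre; Ms4a3-Cre animals and the Flox controls as their Htr2b flox/flox littermates, and each genotype has 2 libraries. Htr2b encodes a serotonin receptor. Ms4a3 is active in granulocyte-monocyte progenitors, so a Cre under its control marks cells descended from them. The mice were adults of either or both sexes, listed as C57B6, and tamoxifen followed by a 3-day washout before surgery is described for the mice without naming 1 genotype. Which Cre allele acted, and whether each library was a separate animal, is not given in the sources used here. Differences between libraries of 1 genotype may therefore be technical, and p-values measure only the spread between libraries.

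Monocytes enter the brain after stroke and mature into macrophages. A dividing cell first licenses and copies its DNA in S phase, using the MCM helicase, the sliding clamp PCNA and freshly made nucleotides, and then condenses and segregates its chromosomes in G2 and M phase under cyclin B and CDK1, with kinetochores, spindle motors and the anaphase-promoting complex. Lyz2, which encodes lysozyme, is abundant in monocytes and their macrophage progeny and scarce in microglia, the resident macrophages of brain tissue.

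The macrophage label was read against genes outside the rule. Ms4a7, carried by macrophages of blood and border origin and low in microglia, was at 131, 640, 1279 and 673 CPM (a gene's transcripts per 1000000 transcripts summed over the cells) in Ms4a3 cKO 1, Ms4a3 cKO 2, Flox control 1 and Flox control 2, against 87.0, 99.2, 188 and 114 CPM in cycling microglia. P2ry12, a purinergic receptor of homeostatic microglia, was at 274, 308, 82.7 and 148 CPM, against 580, 703, 699 and 514 CPM in cycling microglia. Ms4a7 was thus the higher and P2ry12 the lower in the chosen cells of each library. P2ry12 is among the genes by which the microglia were chosen, so its gap is partly set by that choice. For Ms4a7 the gap was narrow in Ms4a3 cKO 1. There 11 UMIs gave an interval for counting error of 65.4 to 235 CPM. This interval includes the 87.0 CPM of cycling microglia, so the Ms4a7 gap was not established in that library. Lyz2 was high and Sall1, Siglech and Gpr34 were at 0 by the rule, so their levels say nothing about the cells. No lineage tracer was read out. Descent from monocytes rests here on Ms4a7, which does not separate blood from border origin, and was not tested. Of the markers of dendritic cells, T or NK cells, neurons and erythroid cells, none reached the level at which a gene was counted as measured.

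A few cells carried markers of other cell types. Transcripts of 9 other-type lists together exceeded 50 per 10000 in 2, 1, 3 and 2 of the cells of Ms4a3 cKO 1, Ms4a3 cKO 2, Flox control 1 and Flox control 2. Those lists leave out microglia and border macrophages. The microglia list summed to 3598, 4787.5, 8225 and 6007 CPM in cycling macrophages. In cycling microglia it summed to 16195, 17011, 26650 and 17238 CPM. The border macrophage list, which holds Ms4a7, summed to 2323, 3656, 2304.5 and 1781 CPM, against 716, 575, 581 and 423 CPM in cycling microglia. Both lists hold genes kept at 0 by the rule, and the source of these transcripts was not tested. The oligodendrocyte lineage list, with 4 of 10 genes measured, summed to 4802, 114, 208 and 155 CPM in cycling cells, against 388, 383, 186 and 538 CPM in non-cycling cells. The endothelial list, with 6 of 10 measured, summed to 1084, 126, 90.7 and 108 CPM in cycling cells, against 263, 312, 126 and 229 CPM in non-cycling cells. In cycling cells both lists were highest in Ms4a3 cKO 1. The fibroblast or mural list, with 3 of 10 measured, summed to 143, 160, 131 and 111 CPM in cycling cells, against 7.14, 17.5, 66.3 and 93.4 CPM in non-cycling cells. The sum was higher in the cycling cells of every library, but in Ms4a3 cKO 1 it rests mostly on 1 cell. There 9 Rgs5 UMIs from that cell gave 107 of the 143 CPM. The neutrophil, B-cell and astrocyte lists summed to at most 346 CPM in cycling cells of any library. With the cells over 50 per 10000 left out, the genotype difference in the cycling share given below was -6.12 percentage points, and 240 genes were still at least 2-fold higher in cycling macrophages in all 4 libraries; the part of these transcripts in single gene levels was not tested. Predicted doublets were 2, 0, 7 and 0 of the cells in the same order. Of 13 barcode sequences found in more than 1 library, 0 belonged to a cycling macrophage.

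Library totals were 77580518 and 84397197 unique transcripts (UMIs) in the Ms4a3 cKO libraries and 105566650 and 105545311 in the Flox control libraries. Cycling macrophages had medians of 11722, 9638, 15854 and 8962 UMIs per cell in Ms4a3 cKO 1, Ms4a3 cKO 2, Flox control 1 and Flox control 2, against 5959, 7388.5, 8632 and 7204 UMIs in non-cycling macrophages. A deeper cell has more chances of showing 3 cycle genes, so shares of cycling cells are also given after every cell was thinned to 2000 UMIs.

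At the edges of the rule, 1, 0, 65 and 18 chosen cells had exactly 3 of the 6 cycle genes in Ms4a3 cKO 1, Ms4a3 cKO 2, Flox control 1 and Flox control 2, and 9, 23, 122 and 96 gated macrophages had exactly 2 and stayed out. Lyz2 lay between 80 and 100 per 10000 in 3, 1, 3 and 3 chosen cells, and between 60 and 80 in 2, 1, 5 and 9 cells that failed on Lyz2. A further 8, 12, 201 and 95 cells met every other criterion and failed because of at least 1 transcript of an excluded gene. In Flox control 1 every one of the 6 cycle genes was found in 193 of the 436 cells.

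Cycling cells made up 2.22% (8 of 360) and 2.13% (9 of 423) of gated macrophages in Ms4a3 cKO 1 and 2, against 13.7% (436 of 3179) in Flox control 1 and 2.07% (62 of 2994) in Flox control 2. The exact 95% binomial intervals, which cover counting error only, were 0.964 to 4.33%, 0.977 to 4.00%, 12.5 to 14.96% and 1.59 to 2.65%. Flox control 1 lay above the other 3 libraries, whose intervals overlapped one another. The Ms4a3 cKO mean was 2.17 ± 0.0669% and the Flox control mean 7.89 ± 8.23% (SD, n = 2 libraries each), a difference of -5.72 percentage points with p = 1 in a two-sided exact permutation test over libraries. That test cannot give less than 0.333 with 2 libraries against 2. Without Flox control 1 the difference was 0.104 percentage points, with the Ms4a3 cKO libraries slightly higher. The 2 Flox control libraries differed from each other by more than the genotype means did, and no genotype difference in this share was detectable. Over all kept cells the genotypes did not overlap, at 0.0523 and 0.0576% in Ms4a3 cKO and 3.23 and 0.375% in Flox control. Over kept cells with Lyz2 at 80 or more, the values were 0.327 and 0.565% against 8.89 and 1.16%. Both gave p = 0.333 in the exact permutation test. The number of gated macrophages enters these values, and its part was not tested.

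Flox control 1 kept its position at equal depth. With every cell thinned to 2000 UMIs, which left out 22, 36, 163 and 239 gated macrophages below that depth, the shares were 1.48% and 1.29% in Ms4a3 cKO 1 and 2, against 7.66% in Flox control 1 and 1.09% in Flox control 2. Microglia of the same libraries, taken as cells with 2 or more of Sall1, Siglech, Gpr34, P2ry12 and Tmem119 and Lyz2 under 80 per 10000, were ordered differently. Their cycling shares were 15.01% and 16.2% in Ms4a3 cKO 1 and 2, against 13.1% in Flox control 1 and 19.3% in Flox control 2. Flox control 1 thus had the lowest cycling share among microglia and the highest among macrophages. Macrophages with 15 or more Arg1 plus Chil3 transcripts per 10000, an alternatively activated state kept out by the rule, were cycling in 7 of 1350 and 14 of 617 cells of Ms4a3 cKO 1 and 2, against 1 of 80 and 4 of 654 cells of Flox control 1 and 2. That criterion removed many more cells than it left in Ms4a3 cKO 1 and few in Flox control 1, so the populations behind the shares differ between libraries.

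**Figure D1:**
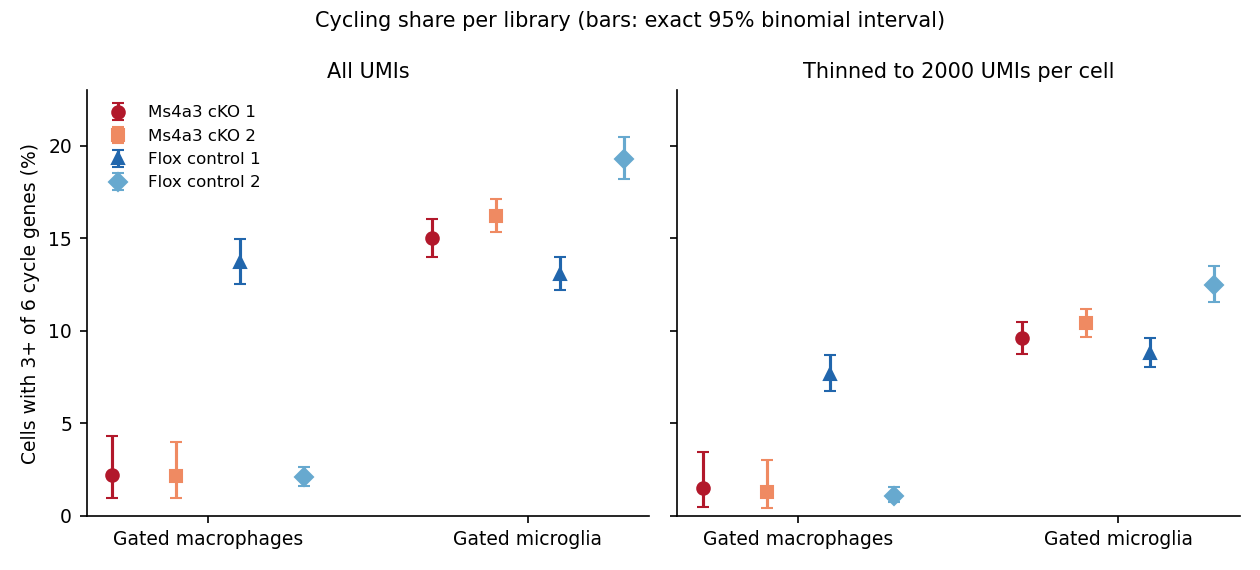
Share of cells with 3 or more of the 6 cycle genes (y axis, percent) among gated macrophages and gated microglia of each library, from all UMIs (left) and after thinning to 2000 UMIs per cell (right); bars are exact 95% binomial intervals. Among macrophages Flox control 1 stands at 13.7% and 7.66%, above the other libraries, while among microglia it has the lowest share, 13.1% and 8.79%.

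The 6 genes of the rule were high in the chosen cells by construction and are given as a description. Mki67, which encodes the Ki-67 protein coating mitotic chromosomes, was at 1346 and 1485 CPM in the Ms4a3 cKO libraries and 916 and 1132 CPM in the Flox control libraries. Top2a, the topoisomerase that untangles sister chromatids, was at 882 and 1223 CPM in Ms4a3 cKO and 651 and 837 CPM in Flox control. Cenpf, a kinetochore-associated protein, was at 238 and 548 CPM in Ms4a3 cKO and 195 and 197 CPM in Flox control. Ccna2, the cyclin of S and G2 phase, was at 357 and 617 CPM in Ms4a3 cKO and 427 and 341 CPM in Flox control. In cycling microglia Mki67 ranged from 1393 to 1620 CPM over the 4 libraries.

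A broad cell-cycle programme came with those genes. Since the rule chose the cells by cycle genes, cycling against non-cycling is a description with no test, and no gene was used to support the choice. Of 6571 genes measured (a mean over libraries of at least 20 CPM in either state), 240 (3.65%) were at least 2-fold higher in cycling macrophages in all 4 libraries, with 1 CPM added to both values, and 8 (0.122%) were at least 2-fold lower. With any size of difference counted, 1102 (16.8%) were higher and 1001 (15.2%) lower in all 4. In the 2 Flox control libraries alone, which hold 498 of the 515 cells, 332 (5.05%) were at least 2-fold higher and 23 (0.35%) lower.

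Chromosome segregation genes were higher almost throughout. Of 55 measured genes of the kinetochore, condensin and spindle list, 51 were at least 2-fold higher in all 4 libraries, and the median log2 difference (of CPM + 1) was 4.19 and 4.79 in the Ms4a3 cKO libraries and 4.68 and 4.46 in the Flox control libraries, against -0.03 to 0.02 over all genes. Birc5, the survivin subunit of the chromosomal passenger complex, was at 572 and 606 CPM in Ms4a3 cKO and 667 and 416 CPM in Flox control cycling macrophages, against 2.38 and 4.38 CPM in Ms4a3 cKO and 5.74 and 2.90 CPM in Flox control non-cycling macrophages. Bub1, a spindle checkpoint kinase, was at 262, 217, 244 and 199 CPM in cycling cells of Ms4a3 cKO 1 and 2 and Flox control 1 and 2, against 1.78, 0.438, 1.66 and 2.40 CPM in non-cycling cells. Smc4, a condensin subunit, was at 822, 948, 704 and 733 CPM in cycling cells, against 94.6, 99.8, 64.2 and 82.3 CPM in non-cycling cells. The states did not overlap for these genes. Ncapg2, a condensin II subunit, was the member of the list that was lower in all 4 libraries, at 179, 160, 106 and 201 CPM in cycling cells and 236, 214, 108 and 209 CPM in non-cycling cells.

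Genes of DNA replication were higher too, by less. At least 2-fold higher in all 4 libraries were 10 of 16 measured origin licensing and MCM genes, 13 of 21 replication fork and repair genes and 5 of 16 nucleotide synthesis genes. In both Flox control libraries the counts were 16, 19 and 11. Pclaf, a PCNA-binding protein of the replication fork, had one of the widest gaps outside the rule, at 489, 434, 526 and 583 CPM in cycling cells of Ms4a3 cKO 1 and 2 and Flox control 1 and 2, against 0.595, 0.875, 2.69 and 2.21 CPM in non-cycling cells. Rrm2, the cell-cycle-regulated subunit of ribonucleotide reductase, was at 155, 286, 315 and 297 CPM in cycling cells, against 0.595, 1.75, 1.5 and 2.78 CPM in non-cycling cells. Pcna was at 250, 708, 970 and 808 CPM in cycling cells, against 205, 188, 243 and 229 CPM in non-cycling cells, so in Ms4a3 cKO 1 the gap was small. Ccne2, the cyclin of S-phase entry, had 0 UMIs in both Ms4a3 cKO libraries, which allows up to 35.7 and 34.3 CPM, and was at 54.7 and 62.0 CPM in the Flox control libraries.

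Among cyclins, kinases and their regulators, 12 of 26 measured genes were at least 2-fold higher in all 4 libraries. Cdk1, the mitotic kinase, was at 369, 366, 352 and 270 CPM in cycling cells, against 7.73, 11.4, 11.8 and 7.82 CPM in non-cycling cells. Cdk4, which acts with D-type cyclins in G1, was at 83.4, 114, 86.2 and 100.3 CPM in cycling cells, against 44.0, 57.8, 52.6 and 61.1 CPM in non-cycling cells. Ccnd1, a D-type cyclin, varied from library to library, at 143, 11.4, 56.0 and 78.4 CPM in cycling cells and 22.0, 21.9, 55.4 and 27.4 CPM in non-cycling cells. Inhibitors of cyclin-dependent kinases were not uniformly low. Cdkn2c, which encodes p18, was at 59.6, 103, 149 and 78.4 CPM in cycling cells, against 2.97, 10.5, 9.21 and 4.48 CPM in non-cycling cells, and Cdkn2d, which encodes p19, and Cdkn3, a phosphatase acting on CDKs, were also at least 2-fold higher in all 4 libraries. Cdkn1a, which encodes p21, was at 59.6, 114, 31.9 and 89.3 CPM in cycling cells and 142, 102, 37.5 and 69.6 CPM in non-cycling cells, with no common direction.

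Of the anaphase-promoting complex list, 4 of 10 measured genes were at least 2-fold higher in all 4 libraries, among them Ube2c, its ubiquitin-conjugating enzyme, at 131, 217, 129 and 67.5 CPM in cycling cells and 0.595, 1.31, 0.621 and 0.442 CPM in non-cycling cells. Of the histone list, 5 of 10 were, among them H2az1, a histone variant, at 1894, 1988, 3092 and 1808 CPM in cycling cells and 489, 475, 602 and 461 CPM in non-cycling cells. The growth-related lists differed by less. Of 16 ribosome biogenesis genes 1 passed the same bar, and of 15 oxidative phosphorylation genes 0 did, against 3.65% of all genes. The ribosome biogenesis list summed to 3265, 3165, 3587.5 and 3526 CPM in cycling cells, against 2510, 2205, 2333 and 2536 CPM in non-cycling cells. By any amount, 4 of its genes were higher and 0 lower in all 4 libraries, against 16.8% and 15.2% of all genes.

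**Figure D2:**
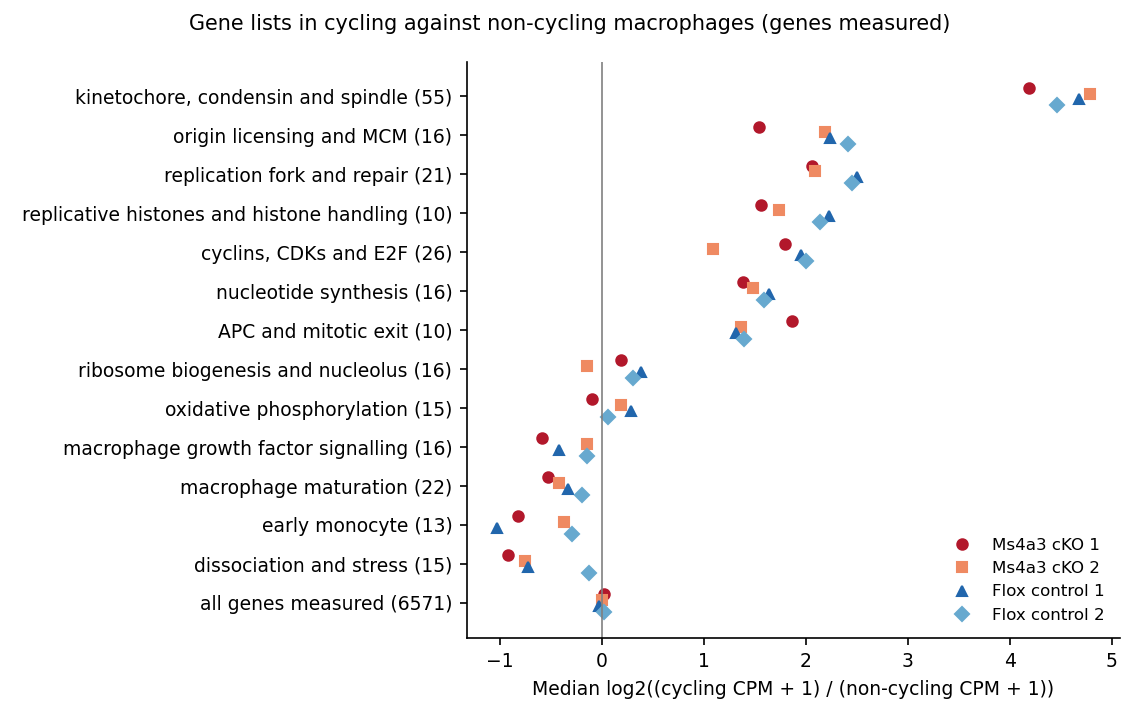
Median log2 ratio of cycling over non-cycling macrophages (x axis, CPM + 1) for each gene list (y axis, measured genes in brackets), 1 marker per library. The kinetochore, condensin and spindle list has medians of 4.19 to 4.79, the macrophage maturation list -0.53 to -0.20, and all 6571 genes -0.03 to 0.02.

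Promoters of the gene lists were searched for short motifs in RefSeq windows, 250 bases before to 50 after the transcript start (GRCm38.p6). Whole lists were counted, including members that were not measured or not higher in cycling cells. The CHR element TTTGAA and the CCAAT box are known from genes of G2 and M phase and the E2F site from genes of S phase. Each was searched on both strands, and the letters taken for E2F were TTTGGCGC or, as the second form, TTTCCCGC. Of the kinetochore, condensin and spindle list 50 genes had a window, of the origin licensing and MCM list 14, and 27025 genes had one in all. The CHR letters were in 32 of the 50 kinetochore, condensin and spindle windows and 5 of the 14 licensing windows, against 18.1% of all windows. The CCAAT box was in 33 of the 50 and 10 of the 14, against 37.9% of all. The E2F letters were in 6 of the 50 and 7 of the 14, against 1.63% of all. Other lists showed less of a split. The CHR letters were in 33.3% of the anaphase-promoting complex windows. The E2F letters were in 20.8% of the replication fork and repair windows and 5.26% of the nucleotide synthesis windows. In the 16 windows of macrophage maturation genes the shares were 6.25% for CHR, 37.5% for the CCAAT box and 6.25% for E2F. Among the 5 rule genes with a window, the CHR letters were in 4, the CCAAT box in 5 and the E2F letters in 0. A match is a description of letters and not of binding.

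Below, 200 bases running from 150 before the start are given for 3 mitotic genes and 3 replication genes that show the contrast, 5′ to 3′ on the gene's strand, with capitals marking the CHR, CCAAT and E2F letters in either direction.
Mki67 chr7:135716330-135716529 (minus strand): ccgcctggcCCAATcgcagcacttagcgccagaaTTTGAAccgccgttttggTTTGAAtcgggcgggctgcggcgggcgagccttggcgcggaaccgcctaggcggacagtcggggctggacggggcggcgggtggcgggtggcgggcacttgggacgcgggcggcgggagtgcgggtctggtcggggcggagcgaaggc
Cdk1 chr10:69352863-69353062 (minus strand): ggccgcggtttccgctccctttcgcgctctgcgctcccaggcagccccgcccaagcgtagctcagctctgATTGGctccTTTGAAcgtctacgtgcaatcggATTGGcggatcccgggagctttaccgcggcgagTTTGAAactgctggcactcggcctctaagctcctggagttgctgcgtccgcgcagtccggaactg
Prc1 chr7:80294301-80294500 (plus strand): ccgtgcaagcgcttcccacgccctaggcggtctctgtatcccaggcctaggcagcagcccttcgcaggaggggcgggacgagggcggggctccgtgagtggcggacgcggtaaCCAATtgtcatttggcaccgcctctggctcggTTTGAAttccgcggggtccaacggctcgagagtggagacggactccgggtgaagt
Mcm6 chr1:128359656-128359855 (minus strand): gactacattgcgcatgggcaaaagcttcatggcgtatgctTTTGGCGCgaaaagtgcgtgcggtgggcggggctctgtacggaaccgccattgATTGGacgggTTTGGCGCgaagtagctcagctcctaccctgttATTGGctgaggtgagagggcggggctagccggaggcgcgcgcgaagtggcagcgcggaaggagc
Hells chr19:38930840-38931039 (plus strand): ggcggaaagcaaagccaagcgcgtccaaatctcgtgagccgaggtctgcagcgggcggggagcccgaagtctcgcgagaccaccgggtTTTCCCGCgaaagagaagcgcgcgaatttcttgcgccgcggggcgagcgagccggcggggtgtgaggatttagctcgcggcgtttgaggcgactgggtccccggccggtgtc
Pclaf chr9:65890173-65890372 (plus strand): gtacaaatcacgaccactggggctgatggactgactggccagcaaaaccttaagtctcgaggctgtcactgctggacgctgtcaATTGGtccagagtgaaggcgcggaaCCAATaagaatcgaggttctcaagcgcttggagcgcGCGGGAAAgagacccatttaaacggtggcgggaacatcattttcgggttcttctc
The Mki67, Cdk1 and Prc1 stretches each hold both the CHR letters and a CCAAT box, in the same or the reverse direction. Mcm6, an MCM helicase subunit, Hells, a chromatin remodeller, and Pclaf hold the E2F letters without the CHR letters, and Mcm6 and Pclaf each hold 2 CCAAT boxes as well. These genes were picked for the contrast, and Cdk1, Hells and Pclaf are in none of the lists counted above. Other genes lacked it: the Pcna and Rrm2 windows held no E2F letters, and the Birc5 window held neither CHR letters nor a CCAAT box.

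The cells of the Flox control libraries were spread from S phase to G2 and M phase, and the 4 libraries differed in where most of their transcripts lay. Other parts of the cycle were not read. Transcripts of 12 S-phase genes made up 20.2% of those of 12 S and 12 G2/M genes in Ms4a3 cKO 1 (51 of 252 UMIs) and 27.7% in Ms4a3 cKO 2 (105 of 379), against 43.3% in Flox control 1 (11066 of 25550) and 50.5% in Flox control 2 (958 of 1896). The Ms4a3 cKO mean was 24.0 ± 5.28% and the Flox control mean 46.9 ± 5.10% (SD, n = 2 libraries each). The 2 genotypes did not overlap, and the difference of -22.9 percentage points had p = 0.333 in a two-sided exact permutation test, the smallest this design allows, so it does not pass 0.05. The Ms4a3 cKO values rest on 8 and 9 cells, 3 of which carried other-type markers; with all such cells left out the difference was -22.1 percentage points. Without Flox control 1 it was -26.6. The level of the share depends on the rule: with cells of 2 cycle genes admitted, the means were 34.6% in Ms4a3 cKO and 52.8% in Flox control. Single cells with a share over 75% numbered 0 of 8 and 0 of 9 in Ms4a3 cKO 1 and 2. In Flox control 1 and 2 they numbered 72 (16.5%) and 16 (26.2%). With so few Ms4a3 cKO cells, the 0 counts do not separate the genotypes. In cycling microglia the same share was 46.7% and 45.8% in the Ms4a3 cKO libraries and 43.9% and 47.8% in the Flox control libraries. The S genes have a floor in cells outside the cycle: they summed to 338, 315, 366 and 359 CPM in non-cycling macrophages, against 608, 1200, 1704 and 1746 CPM in cycling macrophages of the same libraries.

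In the Flox control libraries, cells ordered from high to low S share, by those 24 genes, showed the order from S to G2 and M phase in genes not used for the ordering. In 4 groups of 109 cells of Flox control 1, Ccne2 ran 163, 27.6, 3.11 and 0.765 CPM from the highest to the lowest S share. Cdc6, which loads the MCM helicase, ran 93.9, 9.78, 3.11 and 1.53 CPM over the same groups. Rrm2 ran 566, 433, 131 and 30.6 CPM. These genes were highest where the S share was highest. Cenpa, the histone H3 variant of centromeres, ran the other way, at 47.8, 349, 580 and 820 CPM. Kif20a, a motor of the late mitotic spindle, ran 36.9, 85.7, 124 and 203 CPM, and Cenpf, a rule gene, 38.6, 145, 233 and 437 CPM. Ccnd1 stood at 132 CPM in the group with the highest S share and at 25.3, 29.3 and 22.9 CPM in the next ones. Flox control 2, with 16, 15, 15 and 15 cells, gave 138, 80.7, 0 and 0 CPM for Ccne2 and 51.6, 186, 535 and 679 CPM for Cenpa.

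**Figure D3:**
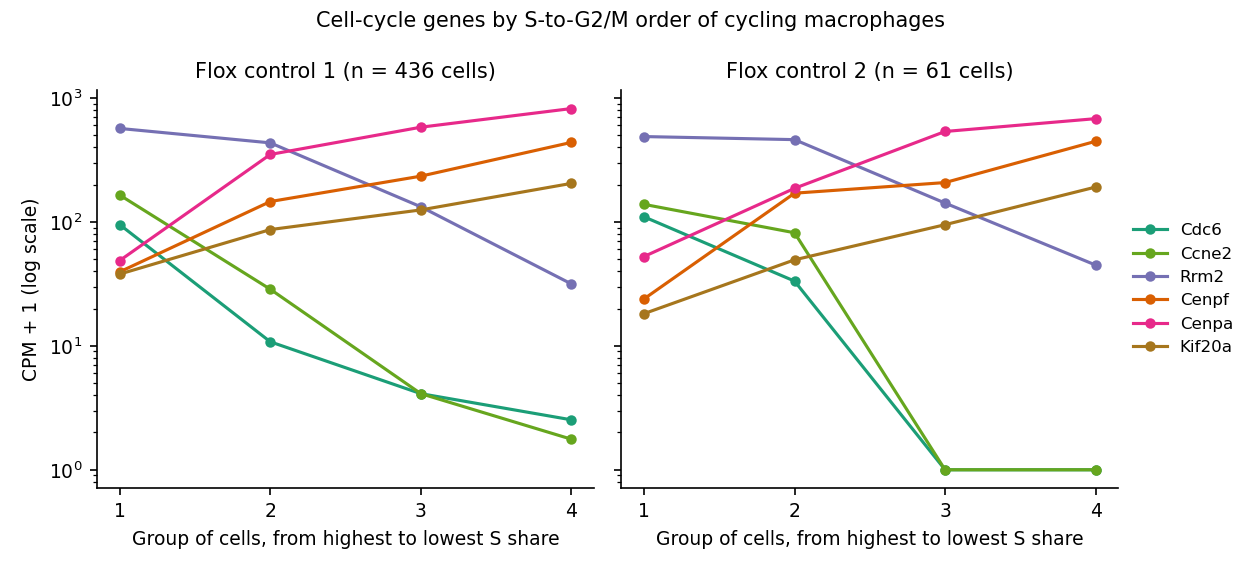
Levels (CPM + 1, log scale) of 6 cell-cycle genes in 4 groups of the cycling macrophages ordered from the highest to the lowest S share (x axis), in Flox control 1 (436 cells) and Flox control 2 (61 cells with a transcript of the ordering genes). Cdc6, Ccne2 and Rrm2 are highest in the first group and Cenpf, Cenpa and Kif20a in the last, in both libraries.

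Genes of macrophage maturation were carried through the cycle at slightly lower levels. Of 22 measured macrophage maturation genes, 14 were lower and 0 higher in cycling macrophages in all 4 libraries, against 15.2% lower over all genes, and the median log2 difference was -0.53 and -0.42 in the Ms4a3 cKO libraries and -0.33 and -0.20 in the Flox control libraries. None of the 14 was lower by 2-fold in all 4. Maf, a transcription factor, was at 334, 366, 236 and 421 CPM in cycling cells of Ms4a3 cKO 1 and 2 and Flox control 1 and 2, against 722, 727, 490 and 574 CPM in non-cycling cells. Apoe, a lipid carrier, was at 2097, 2971, 3897 and 2581 CPM in cycling cells, against 3618, 3620, 5966 and 3940 CPM in non-cycling cells. Mertk, a receptor for dying cells, was at 191, 229, 109 and 292 CPM in cycling cells, against 517, 433, 192 and 376 CPM in non-cycling cells. In each library the cycling cells were the lower of the pair for these 3 genes. The wider monocyte-macrophage list did not move one way: of 20 measured genes 5 were lower and 2 higher in all 4 libraries, with median log2 differences of -0.28 and -0.07 in the Ms4a3 cKO libraries and -0.45 and 0.33 in the Flox control libraries. Over all 6571 genes the median log2 difference was -0.03 to 0.02.

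Few genes were lower by 2-fold in all 4 libraries, 8 in number, and most of these were too scarce to be read in the Ms4a3 cKO cells, where 3 UMIs amount to 35.7 and 34.3 CPM. Tcp11l2, Arl5c, Sfi1 and Krt80 had 0 UMIs in both Ms4a3 cKO libraries, Kynu had 0 and 3, and Vcan had 1 in each, so a 2-fold drop of these 6 genes was not established in at least 1 of those libraries. Of the others, Chil3 was limited by the rule. Slfn5, an interferon-regulated gene, had 8, 8, 636 and 51 UMIs in cycling cells, which gave 95.3, 91.4, 97.9 and 93.0 CPM, against 247, 271, 350 and 238 CPM in non-cycling cells. Vcan, a proteoglycan of classical monocytes, had 14 and 1 UMIs in the cycling cells of the Flox control libraries, at 2.16 and 1.82 CPM, against 15.3 and 22.3 CPM in non-cycling cells. Of the early monocyte list 7 of 13 measured genes were lower and 0 higher in all 4 libraries, against 15.2% and 16.8% of all genes. Some of the 7, such as Vcan and Ly6c2, had 1 UMI in Ms4a3 cKO 1. The list summed to 4671, 8535, 2124 and 3940 CPM in cycling cells, against 9850, 8500, 3171 and 5746 CPM in non-cycling cells. That sum was thus not lower in Ms4a3 cKO 2. Ly6c2, the Ly6C antigen of inflammatory monocytes, was at 11.9, 34.3, 20.6 and 32.8 CPM in cycling cells, from 1, 3, 134 and 18 UMIs. In non-cycling cells it was at 41.0, 65.6, 207 and 46.6 CPM. Immediate-early genes, which respond to tissue dissociation, were often lower as well. Of 15 measured dissociation and stress genes, 9 were lower in all 4 libraries, against 15.2% of all genes. Jun was at 226, 308, 283 and 319 CPM in cycling cells, against 565, 426, 459 and 389 CPM in non-cycling cells. Hsp90aa1, a chaperone, and Dnajb1, a co-chaperone of Hsp70, were the 2 genes of that list that were higher in all 4. The part of dissociation in the other differences was not tested.

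Growth factor receptors were present in the cycling cells. Csf1r, the receptor for CSF1, which keeps macrophages alive and drives their division, was at 298, 274, 212 and 361 CPM in cycling cells and 447, 364, 338 and 318 CPM in non-cycling cells. Csf2ra, a subunit of the GM-CSF receptor, was at 250, 331, 326 and 304 CPM in cycling cells and 378, 428, 469 and 385 CPM in non-cycling cells. Over the list, 7 of 16 measured genes were lower in all 4 libraries, against 15.2% of all genes, and 2 were higher, against 16.8%. Vim, an intermediate filament gene, was higher in all 4 libraries, at 1608, 1440, 2079 and 1856 CPM in cycling cells and 808, 782, 1446 and 1359 CPM in non-cycling cells.

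Flox control 1 was richest in lipid-handling genes in both states. Gpnmb, a glycoprotein of lipid-laden macrophages, was at 572, 1485, 7617 and 1823 CPM in cycling cells of Ms4a3 cKO 1 and 2 and Flox control 1 and 2, against 1437, 2719, 8188 and 3450 CPM in non-cycling cells. Spp1, which encodes osteopontin, was at 6148, 5313, 32954 and 8264 CPM in cycling cells and 3709, 6091, 30380 and 9464 CPM in non-cycling cells. In Ms4a3 cKO 1 a single cell gave 415 of the 516 Spp1 UMIs and a single cell 29 of the 48 Gpnmb UMIs, so those levels do not describe its 8 cells. Cd36, a scavenger receptor, was at 47.7, 57.1, 1434 and 361 CPM in cycling cells and 71.4, 132, 1089 and 467 CPM in non-cycling cells. The library with the highest cycling share was thus also the one with the highest levels of these 3 genes, in cycling and non-cycling cells alike, and the relation was not tested over 4 libraries.

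Ccr2, the chemokine receptor that brings monocytes into tissue, was higher in cycling than in non-cycling macrophages in 3 libraries and lower in Flox control 1. It was at 929, 606, 52.4 and 664 CPM in cycling cells of Ms4a3 cKO 1 and 2 and Flox control 1 and 2, against 606, 305, 199 and 218 CPM in non-cycling cells. Cells with at least 5 Ccr2 transcripts per 10000, a split chosen after the values were seen, were 5 of 8, 2 of 9, 13 of 436 and 21 of 62 cycling cells. In Ms4a3 cKO 1 these 5 cells had 1490 CPM of Spp1 and 18.6 CPM of H2-Aa, an MHC class II gene, and the other 3 had 14424 and 0 CPM. In Ms4a3 cKO 2 the 2 cells had 116 CPM of Spp1 and 925.5 CPM of H2-Aa, and the other 7 had 5883 and 101 CPM. In Flox control 2 the 21 cells had 2032 CPM of Spp1 and 2148 CPM of H2-Aa, and the other 41 cycling cells had 11094 and 220.0 CPM. In Flox control 1 the 13 cells had 11194 CPM of Spp1 and 4436 CPM of H2-Aa, and the other 423 had 33312 and 159 CPM. In both Flox control libraries the Ccr2-high cells were thus the higher in H2-Aa and the lower in Spp1. The Ms4a3 cKO groups hold too few cells to be read this way. In Ms4a3 cKO 1, H2-Aa had 1 UMI over all 8 cells, and 415 of the 516 Spp1 UMIs came from 1 cell. Flt3 and Cd209a, markers of dendritic cells, were at 0 by the rule.

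**Figure D4:**
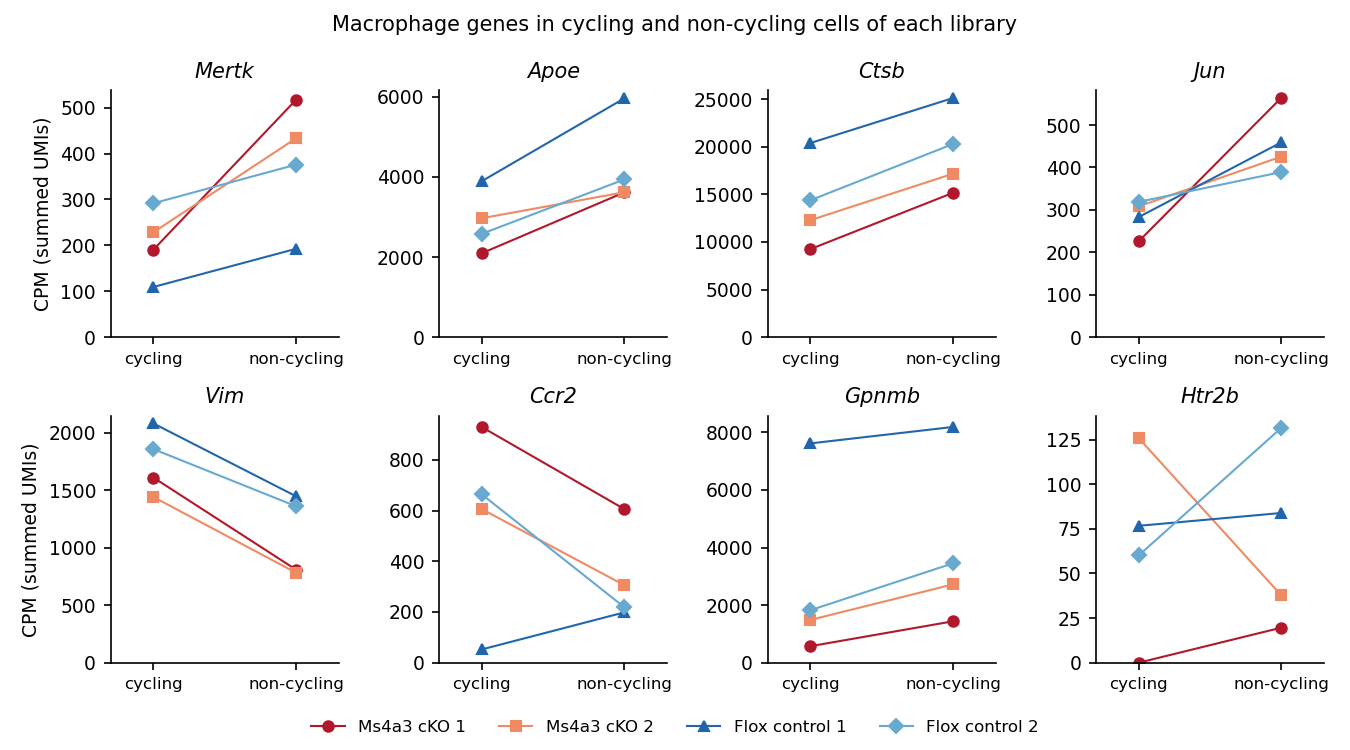
Levels (CPM of summed UMIs, y axis from 0) of 8 genes in cycling and non-cycling macrophages, with a line joining the 2 states of each library. Mertk, Apoe, Ctsb and Jun are lower and Vim higher in cycling cells of every library, while Ccr2 and Htr2b differ in direction between libraries.

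Htr2b, the gene floxed in the controls, was read in cycling macrophages with 0 and 11 UMIs in Ms4a3 cKO 1 and 2, against 498 and 33 UMIs in Flox control 1 and 2. This gave 0 and 126 CPM in the Ms4a3 cKO libraries and 76.7 and 60.2 CPM in the Flox control libraries. The 0 allows a level of up to 35.7 CPM (3 UMIs of the 83928 in those 8 cells), and 6 of the 11 UMIs in Ms4a3 cKO 2 came from 1 cell. Of the cycling macrophages, 0 of 8 and 4 of 9 cells of Ms4a3 cKO 1 and 2 had an Htr2b transcript, against 52.3% and 27.4% of the cells of Flox control 1 and 2. Endothelial cells, which serve as background, had one in 1.20 and 0.835% of Ms4a3 cKO cells and 0 and 5.17% of Flox control cells, at median depths of 2709.5, 2620, 3532 and 4172.5 UMIs. The genotypes overlapped in the cycling cells, and no lower Htr2b level could be established at this depth. The 3′ tags may lie outside the deleted part, which is not stated, so the transcript level is an incomplete check of deletion. Ms4a3 itself had 0 UMIs in the cycling macrophages of all 4 libraries.

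In the non-cycling macrophages, which are numerous enough for a fit, Htr2b was at 19.6 and 37.6 CPM in Ms4a3 cKO and 83.9 and 132 CPM in Flox control (log2 fold change -2.03, SE 0.32, edgeR quasi-likelihood adjusted p = 0.111). The libraries of the 2 genotypes did not overlap, but the difference did not pass the threshold. It passed under 7 of 15 alternatives, among them DESeq2 (adjusted p = 1.12e-05) and edgeR with no filter on low counts (adjusted p = 2.84e-12), and the adjusted p ran from 3.31e-26 to 0.324 over all 15, with the same sign. Of 11690 genes tested, 9 (0.077%) passed an adjusted p of 0.05, 7 higher and 2 lower in Ms4a3 cKO, and 1276 had an unadjusted p under 0.05. Higher were Saa3, Ms4a8a, Fkbp5, Cd163, Jaml, Spon1 and Dst, and lower were Col1a1 and Col1a2, collagen genes of fibroblasts whose means are below 20 CPM. Neither collagen gene passed with predicted doublets removed (edgeR adjusted p = 0.207 for Col1a1 and 0.417 for Col1a2) or under 10% mitochondrial UMIs (0.265 and 0.405), and both passed under 11 of 15 alternatives, with adjusted p from 6.14e-20 to 0.417. The count rests on the libraries used: it was 5 when Ms4a3 cKO 1 was left out and 28 when Ms4a3 cKO 2 was. Leaving out Flox control 1 gave 611 and leaving out Flox control 2 gave 2797, where the lone control is assumed to vary like the Ms4a3 cKO pair.

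The genes that passed in non-cycling cells were also looked up in the cycling ones, where several were too scarce for a fold. Saa3, an acute-phase protein made by activated macrophages, was at 656 and 429 CPM in Ms4a3 cKO and 33.8 and 38.9 CPM in Flox control non-cycling macrophages (log2 fold change 3.71, SE 0.26, edgeR adjusted p = 0.0173), and at 226 and 743 CPM in Ms4a3 cKO and 8.01 and 5.47 CPM in Flox control cycling macrophages. Fkbp5, a glucocorticoid-induced co-chaperone, was at 650 and 549 CPM in Ms4a3 cKO and 65.1 and 112 CPM in Flox control non-cycling macrophages (log2 fold change 2.61, SE 0.23, edgeR adjusted p = 0.0262), and at 512 and 468 CPM in Ms4a3 cKO and 97.0 and 155 CPM in Flox control cycling macrophages. For both genes the cycling cells of the 2 genotypes did not overlap. Both genes were picked in non-cycling cells of the same libraries, so this is no independent support. The share of all genes without overlap in cycling cells was not counted, and the Ms4a3 cKO values rest on 8 and 9 cells. Cd163, a haemoglobin scavenger receptor, had 3 and 1 UMIs in the cycling cells of Ms4a3 cKO 1 and 2, against 1 and 2 UMIs in those of Flox control 1 and 2, too few for a fold. Jaml, a leukocyte adhesion molecule, was at 47.7 and 68.6 CPM in Ms4a3 cKO and 2.77 and 1.82 CPM in Flox control cycling macrophages, from 4, 6, 18 and 1 UMIs. Dst overlapped between the genotypes, at 203 and 68.6 CPM in Ms4a3 cKO and 11.5 and 78.4 CPM in Flox control cycling macrophages. Spon1 overlapped too, at 0 and 11.4 CPM against 0.154 and 14.6 CPM. Ms4a8a had 3 and 1 UMIs, Col1a1 0 and 0 and Col1a2 1 and 0 in the Ms4a3 cKO cycling cells, too few for a fold. No gene-by-gene genotype test was made on the cycling macrophages themselves, because at least 20 cells per library were required and the Ms4a3 cKO libraries held 8 and 9.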

How the data were processed

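Single-cell transcript counts were deposited by the authors as raw matrices of whole-number UMI counts per gene and cell. Per the submitters' processing notes, fastp 0.24.0, STARsolo and the mm10 build were used; the sources used here do not give their settings. Per the labels' protocols, libraries were BD Rhapsody whole-transcriptome libraries with 3′ tags. Kept cells had 500 or more UMIs, 250 or more genes and under 20% mitochondrial UMIs, and the rule given at the start was applied to them. The cells and gene lists were chosen with earlier results of these data known.

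Counts were summed per library and state. Genotype was tested in non-cycling macrophages with edgeR 4.0.16 (quasi-likelihood, TMM, genes filtered on expression, Benjamini-Hochberg adjustment, no block), and checked on simulated data. Cycling against non-cycling is described by CPM with 1 CPM added. Shares were compared by exact permutation over libraries. Doublets were predicted with Scrublet (scanpy 1.11.5, expected rate 6%) and kept, at 1.50 to 2.50% of cells. DESeq2 1.42.0 was an alternative. Genes named were the rule genes, Htr2b, Ms4a3, members of the lists, up to 20 genes per direction ranked by their smallest fold over the 4 libraries, and genes passing the genotype test. Of 30 genes in the histone list, 18 were found in the files by symbol. Same-numbered libraries of the 2 genotypes did not deviate together (correlation -0.112 over 8673 genes), so the numbers were not treated as pairs. Intervals and floors cover counting error only, and fewer cells or less RNA per cell of a type cannot be told apart in sums.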

Additional observations from a re-analysis of the deposited data

How the results depend on the processing

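The Ms4a3 cKO minus Flox control difference in the cycling share of gated macrophages kept its sign, from -6.88 to -1.75 percentage points, under 11 alternatives to cells, thresholds and denominators, and turned to 0.104 when Flox control 1 was left out (-11.5 to 0.104 over the libraries left out, p from 0.333 to 1, exact permutation). The S share difference stayed between -26.7 and -13.5 percentage points under all 13 alternatives. The count of genes at least 2-fold higher in cycling macrophages was 240 and moved by over 1.5 times when cells with 2 of the 6 cycle genes were admitted (145) and with all cells thinned to 2000 UMIs (112). It was 250 to 280 with each library left out. That count cannot fall below 240, since fewer libraries then have to pass, so it is no check of stability. The count of genotype genes in non-cycling macrophages was 9, against 187 with DESeq2, 649 with no filter on low counts, 3 under 10% mitochondrial UMIs and 4 at Lyz2 of 40 or more, and 5 to 2797 with each library left out. With the replicate block it was 31, and Htr2b then passed (adjusted p = 0.0263); pairing the numbers crosswise, added after the data were seen, gave 369. Without Flox control 1 or 2, Htr2b kept its sign (log2 fold change -2.16 and -1.83). Saa3 passed under all 15 alternatives and Fkbp5 under 14, the exception being without Ms4a3 cKO 1 (adjusted p = 0.0533). Genotype and genotype-by-cycle tests on the cycling macrophages, with their alternatives, were not run because no alternative gave every library 20 cells. No paired analysis was possible for the shares because 2 pairs allow no smaller p. The 8 and 9 Ms4a3 cKO cells limit every value given for them.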
